A study of Mus musculus with 10 samples.

Results

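Costimulatory and checkpoint ligands are surface proteins with which an antigen-presenting cell adjusts the response of a T cell that recognises its antigen. The 10 genes described here encode such proteins: *Cd80*, *Cd86*, *Cd40*, *Icosl*, *Cd83*, *Cd274*, *Pdcd1lg2*, *Cd276*, *Havcr2* and *Vsir*. They were picked by symbol from the 55453 genes of the deposited count table. Of the 10, 9 passed the filter on low counts, and *Pdcd1lg2* did not. The libraries were made from hippocampal microglia of female 3xTg mice older than 15 months, a homozygous line whose transgenes include mutant human amyloid precursor protein (APP Swedish) and tau (MAPT P301L). The Thy1.2 promoter drives them in neurons, the animals were retired breeders, and mice of both treatments carried the same transgenes. Mice received glatiramer acetate (GA), a peptide mixture used against multiple sclerosis, by injection under the skin, or phosphate-buffered saline (PBS). GA was given at 0.1 mg weekly for about 8 weeks, with an additional injection in the first week. Each group has 5 libraries. The comparison asks whether long-term GA altered the RNA of microglia, here for the genes through which they can address T cells. No non-transgenic library was analysed here, so the values describe GA only in the presence of the transgenes.

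CD80 and CD86 bind CD28, which costimulates the T cell, and CTLA-4, which restrains it. PD-L1 (*Cd274*) and PD-L2 (*Pdcd1lg2*) bind the inhibitory receptor PD-1, and ICOSL binds ICOS, a relative of CD28. CD40 works in the opposite direction, since CD40L on the T cell engages it to activate the presenting cell through TRAF proteins and NF-κB. Microglia are the resident macrophages of the brain, and in the resting state are known for low levels of the classical costimulatory molecules. Some of these genes, *Havcr2* (TIM-3) and *Vsir* (VISTA) among them, are expressed by microglia in steady state and also act as receptors in the myeloid cell itself.

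The libraries held 32332185 to 38764643 counts each. The sort kept CD45int CD11b+ cells, and the microglial label was matched by the markers: *P2ry12* lay at 5570 to 7351 CPM (counts scaled to a common library size by the trimmed mean of M-values, TMM) and *Tmem119* at 4927 to 6472 CPM. Summed T and NK cell markers (1 of 12 genes detected in every library) were 0.926 to 2.94 CPM in PBS and 1.53 to 2.83 CPM in GA. The highest by mean was *Lck*, with 17 to 53 counts per library, beside 0 to 3 of *Cd3e* and 0 to 9 of *Trac*. Summed B cell markers (6 of 8 detected in every library) were 610.3 to 712.9 CPM in PBS and 580.4 to 721.0 CPM in GA, of which *Ighm* made up a mean of 590.3 CPM, *Cd22* 46.4 and *Cd79b* 20.8, while *Pax5* had 0 to 4 counts. Summed dendritic cell markers (8 of 10 detected in every library) were 611.6 to 696.6 CPM in PBS and 602.7 to 726.4 CPM in GA, with a mean of 614.1 CPM for *Fscn1*, 10.1 for *Cd209a*, 9.26 for *Flt3* and 5.86 for *Zbtb46*, while *Clec9a* was counted in 1 library and *Ccr7* in 5. Summed markers of border-associated macrophages (8 of 8 genes detected in every library) ranged from 51.6 to 262.7 CPM in PBS and from 51.1 to 201.0 CPM in GA. In sorted bulk samples, fewer cells of a type and less RNA per cell cannot be told apart. All PBS libraries carry the title prefix 388, and the GA libraries carry 394 (GA 1 and GA 2) or 400 (GA 3 to GA 5). Because no prefix holds both treatments, prefix and treatment cannot be told apart. The labels do not say that each library came from a separate mouse, and p-values measure only the spread between these libraries.

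Promoter sequences are shown for *Icosl*, the ligand whose libraries separated by treatment, and for *Havcr2*, one of the most evenly expressed. Each is the 250 bases before the RefSeq start on GRCm38.p6, at chr10:78069118-78069367 and chr11:46454681-46454930, both on the plus strand. Capitals mark matches to the NF-κB letters GGGNNNNNCC or to the PU.1 letters AGGAAGT and GAGGAAGT, on either strand. The letters were chosen with the values known.
Icosl: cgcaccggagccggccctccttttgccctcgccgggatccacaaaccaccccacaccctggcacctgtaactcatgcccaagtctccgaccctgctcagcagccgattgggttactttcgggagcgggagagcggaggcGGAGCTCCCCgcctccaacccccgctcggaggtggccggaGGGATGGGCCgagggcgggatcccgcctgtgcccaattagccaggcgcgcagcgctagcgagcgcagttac
Havcr2: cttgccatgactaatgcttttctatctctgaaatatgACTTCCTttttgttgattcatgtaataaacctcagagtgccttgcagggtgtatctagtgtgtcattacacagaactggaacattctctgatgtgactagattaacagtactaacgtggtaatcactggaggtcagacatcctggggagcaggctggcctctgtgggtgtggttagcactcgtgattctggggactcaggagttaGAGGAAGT

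The *Icosl* window held 2 matches to GGGNNNNNCC, which begin at positions -111 and -71 from the start. Those letters are common, in 45.8% of the 32851 promoters of the same length. They also matched 9 times in the *Cd276* window, 2 times in *Cd80* and 1 time in *Pdcd1lg2*, and not in *Cd274*, *Havcr2* or *Vsir*. The stricter form GGGNNTTTCC, found in 1.4% of promoters, had no match in any of the 7 ligand promoters available. The *Havcr2* window held AGGAAGT, found in 7.7% of promoters, at positions -213 and -7 from the start. The second of these lies within GAGGAAGT, which 2.4% of promoters hold. PU.1 (*Spi1*) is a master transcription factor of myeloid cells. A match is a description of letters, not a binding site.

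The ligands spanned a wide range of levels in these microglia. Per kilobase of exon, the mean level over all 10 libraries was 489.5 ± 31.6 CPM (SD, n = 10) for *Vsir*, 158.2 ± 26.1 for *Cd83*, 157.7 ± 7.34 for *Havcr2* and 107.8 ± 6.07 for *Cd86*. These 4 genes lay above the 97.9th percentile of the genes tested. *Icosl* followed with 29.4 ± 3.34 CPM per kilobase. A middle group held *Cd276* with 10.9 ± 1.62, *Cd80* with 7.54 ± 0.676 and *Cd274* with 6.66 ± 0.817. *Cd40*, at 0.361 ± 0.318, and *Pdcd1lg2*, at 0.126 ± 0.0860, were the lowest, at percentiles 13.2 and 3.64. *Vsir* alone made up 47.9% to 54.7% of the summed level of the 10 genes in a library.

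**Figure D1:**
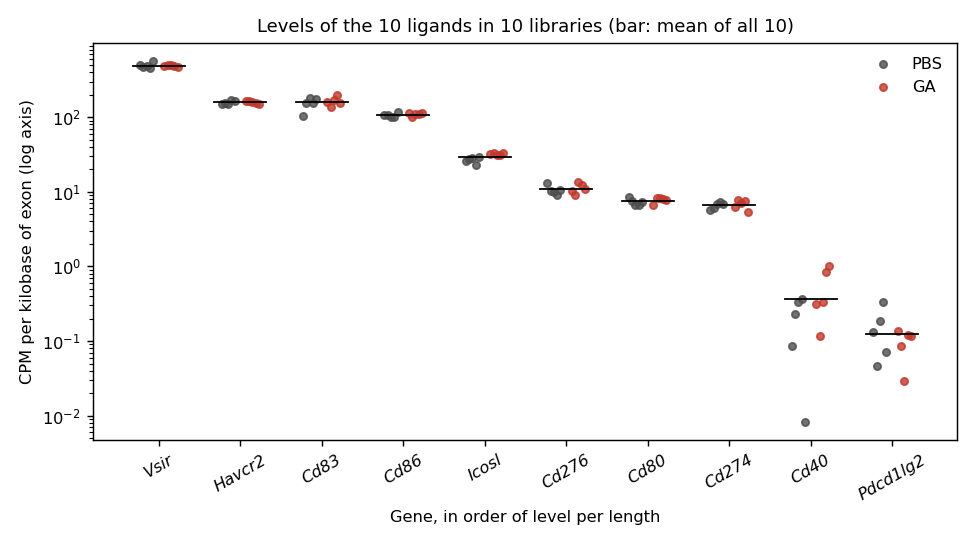
CPM per kilobase of exon (log axis) of each ligand in 5 PBS and 5 GA libraries, with a bar at the mean of all 10. *Vsir* is highest in every library at 456.5 to 569.5, and *Cd40* has the widest spread, from 0.00832 to 0.997.

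Neighbours in this order were compared within libraries by two-sided exact sign-flip permutation tests on log2 CPM per kilobase, with adjustment over the 9 pairs. The order on this scale follows mean log2 values, which put *Havcr2* just before *Cd83*. *Vsir* exceeded *Havcr2* 3.10-fold in 10 of 10 libraries (adjusted exact permutation p = 0.00352). *Cd86* exceeded *Icosl* 3.69-fold, *Icosl* exceeded *Cd276* 2.69-fold and *Cd276* exceeded *Cd80* 1.44-fold, each in 10 of 10 libraries with the same adjusted p. For *Icosl* over *Cd276* the log2 difference was 1.43, and 2.12 with the longest transcript as the length. *Cd274* exceeded *Cd40* 24.1-fold, also in 10 of 10 libraries. That log2 difference was 4.59 with 0.1 CPM added before the logarithm and 3.97 with 0.5 CPM added. *Havcr2* and *Cd83* did not differ beyond their spread (1.01-fold, adjusted exact permutation p = 0.873). *Cd83* exceeded *Cd86* 1.45-fold in 9 of 10 libraries (adjusted exact permutation p = 0.00586), but with the longest transcript as the length the difference was 0.06 on the log2 scale with an adjusted p of 0.527. *Cd80* exceeded *Cd274* 1.14-fold in 8 of 10 libraries (adjusted exact permutation p = 0.0327). That call was lost when PBS 1, PBS 2 or any GA library was left out, with adjusted p up to 0.0653. An antisense gene shares 14.1% of the exon bases of *Cd274*, in libraries that do not keep strand, and its part in this order was not tested. *Cd40* and *Pdcd1lg2* did not differ beyond their spread (1.70-fold, adjusted exact permutation p = 0.134) until PBS 5 was left out, which gave an adjusted p of 0.0402.

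Across treatments, no ligand passed the threshold. With edgeR's quasi-likelihood test and Benjamini-Hochberg adjustment over the 14481 genes tested, 0 of 9 ligands had an adjusted p below 0.05, against 0% of all genes. DESeq2 likewise called 0 ligands, against 0.0106% of the 18894 genes it adjusted. At an unadjusted p below 0.05 edgeR gave 1 ligand, *Icosl*, which was higher in GA, against 5.75% of all genes (2.58% higher and 3.17% lower), and DESeq2 gave 2, *Icosl* and *Cd40*, against 4.53%. The fitted log2 fold change was positive for 8 ligands and negative for 1, with a median of 0.08, while 50.1% of all genes were positive with a median of 0.0002. Without PBS 1 the tally was 5 positive and 4 negative, and the median was 0.04 without PBS 1, GA 3 or GA 4 and 0.05 without PBS 4. Without PBS 5 the tally was 9 positive and 0 negative, and with the GA libraries of prefix 394 alone it was 6 and 3 with a median of 0.02. Leaving out PBS 4 or GA 2 raised the number of ligands at an unadjusted p below 0.05 in edgeR from 1 to 2.

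**Figure D2:**
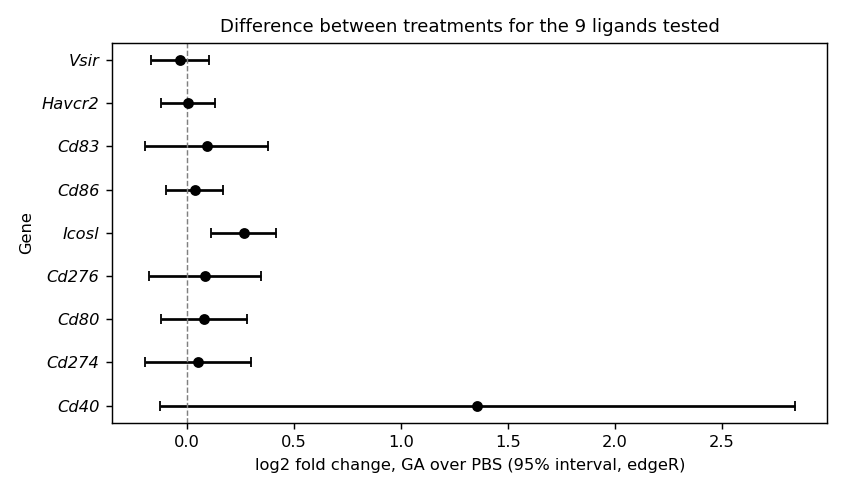
log2 fold change of GA over PBS for the 9 ligands tested, with 95% intervals from edgeR. The interval of *Icosl*, from 0.11 to 0.42, lies above 0 before adjustment for multiple tests, and that of *Cd40* is the widest, from -0.13 to 2.84.

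**Figure D3:**
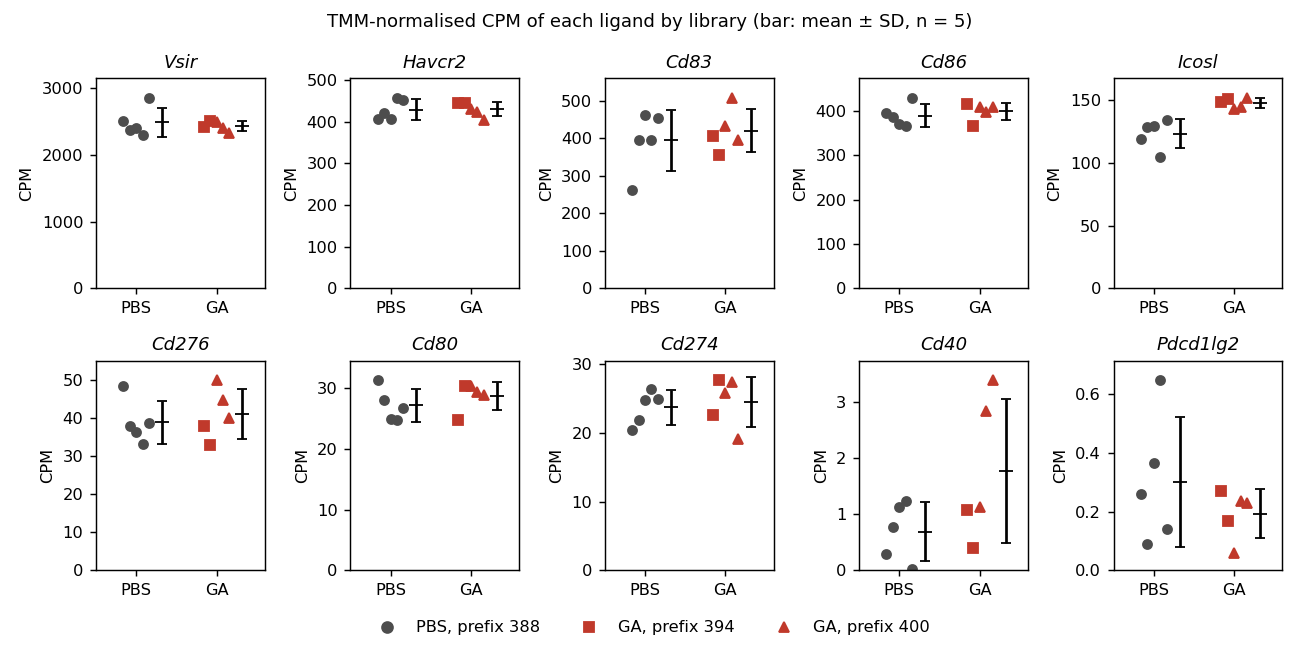
TMM-scaled CPM of each ligand in every library, from 0 on a linear axis, with the mean ± SD of each group (n = 5) and the title prefix by symbol. The GA libraries lie above all PBS libraries for *Icosl*, at 143.0 to 152.3 against 104.8 to 134.6 CPM, and the groups overlap for the other 9 genes.

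*Icosl* (ENSMUSG00000000732.9) lies at chr10:78069302-78083913 on the plus strand of GRCm38, with 4620 exon bases. In PBS 1 to PBS 5 it was measured at 119.3, 128.5, 129.6, 104.8 and 134.6 CPM. In GA 1 to GA 5 it was measured at 148.7, 151.2, 143.0, 145.1 and 152.3 CPM. Every GA library was above every PBS library, as was the case for 0.435% of all genes tested. The group means were 123.3 ± 11.8 in PBS and 148.1 ± 3.96 in GA (SD, n = 5 each). The fitted difference was 1.20-fold (95% interval 1.08 to 1.33), or 0.26 on the log2 scale with SE 0.07. Its unadjusted edgeR p was 0.00230, which ranked 25th among all genes, and the adjusted p was 0.847. A two-sided exact permutation test gave p = 0.00794, the smallest that 5 against 5 libraries allow, and was 1 of 10 such tests run here. With DESeq2 the adjusted p was 0.184. It fell to 0.0477 when PBS 5 was left out, the only DESeq2 fit that called a ligand, whether all libraries were used or 1 was left out.

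With the GA libraries of 1 prefix alone against the same 5 PBS libraries, the log2 fold change of *Icosl* was 0.29 (SE 0.11; adjusted p = 1.0) for 394 and 0.26 (SE 0.09; adjusted p = 0.610) for 400, and neither fit called it. The prefixes themselves differed by -0.03 (SE 0.07). Without any single library the edgeR estimate stayed between 0.21 and 0.30. Summed monocyte markers (7 of 8 genes detected in every library) ranged from 34.2 to 90.8 CPM in PBS and from 36.9 to 54.3 CPM in GA. Summed neutrophil markers (7 of 9) ranged from 36.1 to 424.5 CPM in PBS and from 9.76 to 160.8 CPM in GA. Over the 10 libraries *Icosl* correlated with these sums at r = -0.59 and r = -0.44, and their part in the result was not tested.

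*Cd40* (ENSMUSG00000017652.16; chr2:165055627-165072948, plus strand) encodes the receptor through which T cell help reaches the presenting cell. Its counts in PBS 1 to PBS 5 were 11, 26, 37, 40 and 1. In GA 1 to GA 5 they were 36, 14, 39, 108 and 132. The corresponding levels were 0.288, 0.777, 1.13, 1.24 and 0.0283 CPM in PBS and 1.08, 0.393, 1.13, 2.83 and 3.40 CPM in GA. Only GA 4 and GA 5 were above all PBS libraries, and PBS 5 held a single count. The means were 0.693 ± 0.525 and 1.76 ± 1.28 CPM (SD, n = 5 each). The fitted ratio was 2.56 with a 95% interval from 0.914 to 7.17, an unadjusted p of 0.0706 and an adjusted p of 0.877 in edgeR. The exact permutation test gave p = 0.135.

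The high *Cd40* libraries GA 4 and GA 5 both carry prefix 400, while GA 3, of the same prefix, was close to GA 1 of prefix 394. The log2 fold change against PBS was 0.10 (SE 0.96) with prefix 394 alone and 1.83 (SE 0.71) with prefix 400 alone. Within GA, all 3 libraries of prefix 400 (1.13 to 3.40 CPM) lay above both of prefix 394 (0.393 to 1.08 CPM), as was the case for 14.1% of the 15076 genes tested there (27.5% in either direction). The difference was 1.74 (SE 0.60), with an edgeR p of 0.0187 before and 0.369 after adjustment, and 0 ligands were called in that comparison against 0.0133% of all genes. Without GA 1 the difference was 2.64 (unadjusted p = 0.00842), and without GA 2 it was 1.18 (unadjusted p = 0.106), where the 1 library left of prefix 394 is assumed to vary like the others. *Cd276* was the only other ligand with an unadjusted p below 0.05 between prefixes, a level that 10.1% of all genes reached. Leaving out GA libraries moved that count from 2 to 0 without GA 2, to 1 without GA 3 or GA 4 and to 3 without GA 1. Over the 10 libraries *Cd40* correlated with summed endothelial and mural markers at r = 0.67 (36.9 to 52.2 CPM in GA and 38.8 to 54.6 CPM in PBS, with *Rgs5* at 0 in every library) and with summed microglial markers at r = -0.63. Their part in the result was not tested. PBS 5, with 1 count of *Cd40*, had the highest microglial sum, and r without that library is not given.

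*Cd80* and *Cd86*, the B7 pair that binds CD28 and CTLA-4, showed small differences. Both lie on chromosome 16, at chr16:38455561-38496335 and chr16:36603869-36666081, on the plus and the minus strand. *Cd86* was measured at 396.3, 386.3, 370.0, 366.4 and 430.8 CPM in PBS 1 to PBS 5 and at 415.2, 366.2, 408.5, 397.6 and 409.7 CPM in GA 1 to GA 5. The groups overlapped, with a ratio of 1.02 (95% interval 0.933 to 1.12) and an adjusted edgeR p of 0.969. *Cd80* was measured at 31.4, 28.0, 25.0, 24.8 and 26.7 CPM in PBS and at 24.8, 30.3, 30.4, 29.3 and 28.8 CPM in GA. GA 1 stood below the other GA libraries, and PBS 1 was the highest of all. The ratio was 1.06 (95% interval 0.919 to 1.21), with an adjusted edgeR p of 0.949. Per kilobase, *Cd86* exceeded *Cd80* by a median of 15.0-fold in PBS (12.8 to 16.3) and 13.7-fold in GA (12.2 to 17.0), so that the pair was represented mainly by *Cd86* in both groups.

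*Cd83* encodes a surface protein known from mature dendritic cells that stabilises MHC class II and CD86 on the membrane. The gene (chr13:43784775-43803132, plus strand) was measured at 262.4, 395.3, 463.2, 394.5 and 455.2 CPM in PBS 1 to PBS 5 and at 406.7, 355.0, 433.3, 508.5 and 394.4 CPM in GA 1 to GA 5. PBS 1 was low and the remaining libraries overlapped. The ratio was 1.06 (95% interval 0.872 to 1.30), with an adjusted edgeR p of 0.955. Without PBS 1 the log2 fold change changed from 0.09 to -0.03. Summed genes of the dissociation response (14 of 14 detected) ranged from 847.5 to 1269 CPM in PBS and from 838.7 to 1504 CPM in GA, and correlated with *Cd83* at r = -0.02 over the 10 libraries. Their correlation with *Cd86* was -0.81 and with *Cd276* -0.76.

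The genes of the PD-1 ligands, *Cd274* and *Pdcd1lg2*, are neighbours on chromosome 19, 22823 bases apart. *Cd274* (chr19:29367455-29388095) was measured at 20.4, 21.9, 24.8, 26.4 and 25.0 CPM in PBS 1 to PBS 5 and at 22.5, 27.8, 25.8, 27.3 and 19.2 CPM in GA 1 to GA 5. The lowest value and the highest were both in GA libraries. The ratio was 1.03 (95% interval 0.871 to 1.23), with an adjusted edgeR p of 0.975. The library kit does not keep strand, and 14.1% of the exon bases of *Cd274* are shared with an antisense gene. *Pdcd1lg2* (chr19:29410919-29471161) had 10, 3, 12, 21 and 5 counts in PBS 1 to PBS 5 and 9, 6, 2, 9 and 9 in GA 1 to GA 5. The groups overlapped, with the highest count in PBS 4 and the lowest in GA 3. Over the 10 libraries *Pdcd1lg2* correlated with the summed markers of monocytes at r = 0.76, of border-associated macrophages at r = 0.65 and of T and NK cells at r = 0.64, sums that were all highest in PBS 4, and their part was not tested. Means were 0.302 ± 0.223 and 0.193 ± 0.0838 CPM (SD, n = 5 each; exact permutation p = 0.444). *Cd274* was thus the main PD-1 ligand by RNA, at a median of 42.2 times the level of *Pdcd1lg2* per kilobase in PBS (22.0 to 132.1) and 62.7 times in GA (44.8 to 241.5).

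The 3 remaining inhibitory genes had ratios of GA over PBS between 0.977 and 1.06, and their groups overlapped. *Vsir*, whose product VISTA restrains T cells and is also a regulator of myeloid cells, was measured at 2497, 2369, 2406, 2289 and 2856 CPM in PBS 1 to PBS 5 and at 2408, 2506, 2488, 2401 and 2322 CPM in GA 1 to GA 5. PBS 5 was the highest. The ratio was 0.977 (95% interval 0.890 to 1.07; adjusted p = 0.970), and without PBS 5 the log2 fold change turned from -0.03 to 0.03. *Vsir* (chr10:60346851-60372684) lies inside *Cdh23* on the opposite strand but shares 0 exon bases with it. Summed microglial markers (10 of 10 detected) ranged from 56190 to 66370 CPM in PBS, with PBS 5 the highest, and from 57210 to 62010 CPM in GA. They correlated with both *Vsir* and *Cd86* at r = 0.84 over the 10 libraries, and their part in these values was not tested.

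*Havcr2* (chr11:46454935-46481255), which encodes TIM-3, was measured at 406.7, 419.9, 407.2, 457.9 and 453.1 CPM in PBS and at 443.7, 445.8, 429.9, 423.0 and 404.8 CPM in GA. The groups overlapped almost completely. The ratio was 1.001 (95% interval 0.917 to 1.09; adjusted p = 0.998), and its sign varied with the setting. Its spread over the 10 libraries, a coefficient of variation of 4.65%, was small, with an SD of log2 values at percentile 1.24 of all genes tested. *Cd276* (chr9:58524298-58555437, minus strand), which encodes B7-H3, was measured at 48.4, 37.9, 36.3, 33.1 and 38.7 CPM in PBS and at 37.9, 33.0, 50.1, 44.8 and 40.2 CPM in GA. The ratio was 1.06 (95% interval 0.884 to 1.27; adjusted p = 0.953). Within GA, prefix 400 was above prefix 394 in every library, as for 14.1% of all genes, with a log2 fold change of 0.35 (SE 0.12) and an edgeR p of 0.0183 before and 0.366 after adjustment. Of its exon bases, 11.4% are shared with a gene on the opposite strand.

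Partners of the ligands and related genes were examined as 6 lists, in which 0 genes passed the adjusted threshold of edgeR or of DESeq2. At an unadjusted edgeR p below 0.05 the lists held, in the order below, 0, 1, 1, 1, 0 and 2 genes. Over all genes, 5.75% reached that level and 50.1% had a positive log2 fold change. The first list, named T cell receptors for the ligands, holds 14 genes, and not all of their products bind any of the 10 ligands. The product of *Lag3*, for example, binds MHC class II. Of the 14, 6 had enough counts to be tested, 2 higher and 4 lower in GA, with a median log2 fold change of -0.13. None of the 6 reached an unadjusted p below 0.05. *Cd40lg* was at 0 in every library and *Ctla4* had at most 1 count. *Btla*, which encodes an inhibitory receptor, had means of 1.65 ± 0.891 CPM in PBS and 0.922 ± 0.331 in GA (log2 fold change -0.83, SE 0.41; adjusted p = 0.872). *Pdcd1*, the gene of PD-1 itself, was measured with 1569 to 3296 counts in these libraries, at 55.2 ± 10.9 CPM in PBS and 65.5 ± 16.9 in GA (adjusted p = 0.896).

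Of 20 other B7, TNF and nectin family ligands, 18 were in the table and 10 were tested, 4 higher and 6 lower. *Tnfsf8*, the gene of CD30 ligand, was at 18.4 ± 2.49 CPM in PBS and 22.9 ± 3.97 in GA (log2 fold change 0.32, SE 0.13; unadjusted p = 0.0329, adjusted p = 0.854). It was the only 1 of the 10 tested at an unadjusted p below 0.05, a level that 5.75% of all genes reached. *Cd200*, whose product signals to the inhibitory receptor CD200R on microglia, was low at 0.406 ± 0.212 and 0.215 ± 0.144 CPM (log2 fold change -0.91, SE 0.56; adjusted p = 0.895). The genes *Vtcn1*, *Btn1a1*, *Btn2a2*, *Btnl9* and *Tnfsf4* were listed at 0 in every library.

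Among 16 binding partners and inhibitory receptors of myeloid cells, 15 were tested, 6 higher and 9 lower, with a median of -0.04. *Ceacam1*, which encodes a proposed partner of TIM-3, was at 81.0 ± 8.79 CPM in PBS and 70.0 ± 3.60 in GA (log2 fold change -0.21, SE 0.08; unadjusted p = 0.0201, adjusted p = 0.847). *Cd300a*, the gene of an inhibitory receptor, was at 258.8 ± 15.1 and 238.9 ± 8.46 CPM (log2 fold change -0.12, SE 0.06; adjusted p = 0.887).

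All 21 genes of CD40 and NF-κB signalling were tested, 10 higher and 11 lower, with a median of -0.01. *Nfkb1*, which encodes the precursor of the NF-κB subunit p50, was at 176.3 ± 6.69 CPM in PBS and 158.1 ± 0.646 in GA (log2 fold change -0.16, SE 0.05; unadjusted p = 0.0110, adjusted p = 0.847). All GA libraries of *Nfkb1* were below all PBS libraries, and groups failed to overlap in either direction for 0.891% of all genes. *Nfkbia*, the gene of the NF-κB inhibitor IκBα, was at 177.4 ± 76.6 and 132.0 ± 17.7 CPM (log2 fold change -0.43, SE 0.21; adjusted p = 0.872).

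All 18 genes of interferon gamma and JAK-STAT signalling were tested, 11 higher and 7 lower, with a median of 0.09 and none at an unadjusted p below 0.05. *Gbp3*, an interferon-inducible GTPase gene, was at 27.2 ± 4.33 CPM in PBS and 33.0 ± 6.08 in GA (adjusted p = 0.872), and *Irf2*, a gene of an interferon regulatory factor, at 93.1 ± 7.59 and 85.5 ± 2.31 CPM (adjusted p = 0.895). Of 15 names for genes of turnover, trafficking and transcription of the ligands, 13 were in the table and were tested, 8 higher and 5 lower. *Cmtm4*, whose product protects PD-L1 from degradation alongside CMTM6, was at 9.28 ± 2.79 CPM in PBS and 6.52 ± 1.02 in GA (log2 fold change -0.51, SE 0.19; unadjusted p = 0.0208, adjusted p = 0.847). *Gsk3b*, which encodes a kinase that marks PD-L1 for degradation, was at 68.7 ± 8.19 and 57.9 ± 7.38 CPM (log2 fold change -0.25, SE 0.10; unadjusted p = 0.0320, adjusted p = 0.854).

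**Figure D4:**
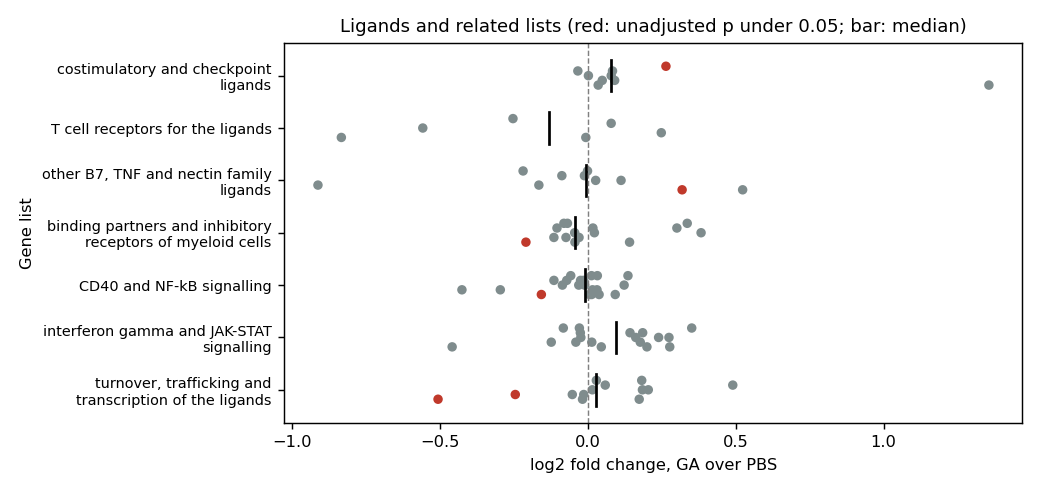
log2 fold change of GA over PBS for each tested gene of the ligands and of 6 related lists, with a bar at each median and red for an unadjusted edgeR p below 0.05. Medians run from -0.13 for the list named T cell receptors for the ligands to 0.09 for interferon gamma and JAK-STAT signalling. The ligands' median is 0.08.

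The ligands did not vary together as a block over the libraries. Over the 45 pairs, Pearson's r of log2 CPM had a median of 0.05 and ranged from -0.85 to 0.61 (n = 10 libraries, which share depth, scaling and treatment). The lowest was between *Cd40* and *Vsir*, and was -0.89 after removal of the group means. PBS 5 held 1 count of *Cd40* and the highest level of *Vsir*, and r without that library is not given. The highest was between *Cd80* and *Cd276*, at 0.61, followed by *Cd274* and *Havcr2* at 0.61. Among 8684 other genes with a mean of at least 10 CPM, those most like *Icosl* over the 10 libraries were *Nars2* (r = 0.94) and *Toe1* (r = 0.93). For *Cd83* they were *Axl* (r = 0.94) and *St8sia4* (r = 0.91), and for *Cd40* *Trnau1ap* (r = 0.96) and *Mak16* (r = 0.91). For *Cd86* they were *Uspl1* and *Fam49b* (both r = 0.92), and for *Vsir* *Lman2l* (r = 0.93) and *Tspan14* (r = 0.91). For *Havcr2* they were *Fam234a* (r = 0.94) and *Elmod2* (r = 0.92), for *Cd274* *Plekha5* (r = 0.94) and *Ncbp1* (r = 0.91), for *Cd276* *Hif1an* and *Lmo2* (both r = 0.95), and for *Cd80* *Keap1* (r = 0.90) and *Sars2* (r = 0.88). These are the extremes of many comparisons over few libraries.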

How the data were processed

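Microglia were sorted from hippocampi, and cDNA was pre-amplified (SMARTer Ultra Low Input v4, which does not keep strand) and sequenced. The authors deposited raw counts per gene without normalization, for 55453 genes and 10 libraries. The submitters' processing notes name bcl2fastq 2.19.0, fastp 0.20.0, STAR 2.7.0f, featureCounts of Subread 1.6.4 and GRCm38.p6. Groups came from the treatment labels. A few items are not reported here.

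Genes were kept with filterByExpr (minimum count 10; 14481 genes), scaled by TMM and tested with edgeR 4.0.16 (quasi-likelihood F-test, R 4.3.3), adjusted by Benjamini-Hochberg at 0.05. Single ligands were also tested by two-sided exact permutation on log2(CPM + 0.1). Levels per kilobase used the union of exons in GENCODE M21. Alternatives included DESeq2 1.42.0 and limma-voom (limma 3.58.1). DESeq2 fits and permutation tests without single libraries were added after the data were seen. Members and lists were chosen with earlier results of these data known. Named beyond the members are the 2 genes of smallest p in each list, the 2 genes most correlated with each ligand, and markers. Listed genes at or near 0, and *Icos*, *Cd28* and *Spi1*, were named after values were seen. On data simulated for GA against PBS (14481 genes), 200 genes were given a log2 fold change of 1, of which edgeR found 138 with 6 false calls and DESeq2 146 with 35. Amplified reads are not independent molecules, so counting limits cover counting error only.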

Additional observations from a re-analysis of the deposited data

Results flagged for a closer look

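Of 44 groups of 5 libraries examined for a single library that stands apart, 3 held one, and chance gives about 1 in 20. *Cd80* in GA 1 was 24.75 CPM, below the other GA libraries at 28.8 to 30.4 CPM. The summed B cell markers were 712.9 CPM in PBS 1, above the other PBS libraries at 610.3 to 627.9 CPM. The same sum was 580.4 CPM in GA 2, below the other GA libraries at 683.1 to 721.0 CPM. Most of that sum was *Ighm* (521.9 to 648.5 CPM), with *Cd22* at 35.5 to 68.5 CPM and *Cd79b* at 16.1 to 26.6 CPM, while *Pax5* had 0 to 4 counts per library.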

How the results depend on the processing

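The number of ligands called stayed at 0 in edgeR, limma-voom and DESeq2 on all libraries, under other scalings and filters, with either prefix of GA alone and without any single library in edgeR. The exception was DESeq2 without PBS 5, with 1 ligand called. At an unadjusted p below 0.05, edgeR counted 2 ligands in place of 1 without a filter on low counts and with prefix 400 alone. The filter of at least 10 counts in every library left out *Cd40*. Some differences that were not called changed sign. For *Havcr2* the log2 fold change was -0.00035 with DESeq2 size factors, -0.0023 with at least 10 counts in every library and -0.028 with prefix 400 alone. With prefix 394 alone *Cd83* was -0.043 and *Cd276* -0.13. DESeq2 without PBS 1 gave -0.0016 for *Cd274*, -0.025 for *Cd83* and -0.017 for *Havcr2*, and without PBS 5 it gave 0.021 for *Vsir*. DESeq2 gave *Havcr2* -0.0066 without PBS 2, -0.016 without PBS 3, -0.011 without GA 1 and -0.0095 without GA 2. The cause was not tested.

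Without a single library, edgeR's log2 fold change ran from -0.00090 to 0.13 for *Cd274*, -0.025 to 0.16 for *Cd83*, -0.017 to 0.027 for *Havcr2* and -0.062 to 0.026 for *Vsir*. The differences of mean log2 CPM of the same genes ran from -0.011 to 0.13, -0.032 to 0.17, -0.016 to 0.027 and -0.059 to 0.021. For prefix 400 over 394 the range was -0.032 to 0.25 for *Cd80*, -0.039 to 0.15 for *Cd86* -0.20 to 0.093 for *Cd274* and 1.18 to 2.64 for *Cd40*. In the order of levels, the log2 difference ran from -0.045 to 0.055 for *Havcr2* over *Cd83*, 0.14 to 0.22 for *Cd80* over *Cd274* and 0.57 to 1.04 for *Cd40* over *Pdcd1lg2*. With the longest transcript as length, *Havcr2* over *Cd83* was -0.040, *Cd83* over *Cd86* 0.062, *Icosl* over *Cd276* 2.12 and *Cd80* over *Cd274* 0.41. No paired analysis was possible because the replicate numbers follow accession order, and the title numbers repeat between prefixes within GA.

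*Cd40* and *Pdcd1lg2* had at most 132 and 21 counts in a library and coefficients of variation of 88.0% and 68.2%, and the parts of depth and of spread between libraries in their precision were not told apart. For the other 8 ligands, the interval of the ratio lay within changes of 1.33-fold before adjustment for multiple tests. These intervals measure only the spread between these libraries. Prefix and treatment cannot be told apart, so the intervals set no limit on an effect of treatment. The log2 fold change of *Cd276* was 0.22 (SE 0.13) with prefix 400 alone and -0.13 (SE 0.16) with prefix 394 alone.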

Other observations

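*Pdcd1*, the receptor gene for the PD-1 ligands, and *Lag3*, another inhibitory receptor gene best known from T cells, were measured in these microglia at levels far above the T cell markers. *Lag3*, *Lgals9* and *Sirpa* are named here after their values were seen. *Pdcd1* was at 31.3 ± 7.49 CPM per kilobase of exon (SD, n = 10) and *Lag3*, whose product binds MHC class II, at 35.9 ± 4.28. *Cd3e* had 0 to 3 counts in a library, *Cd8a* 0 to 6, *Trac* 0 to 9, *Cd4* 0 to 51 and *Lck* 17 to 53. *Pdcd1* had 1569 to 3296 counts and *Lag3* 2146 to 3310. *Icos*, the receptor gene for ICOSL, was lower, with 37 to 144 counts, and *Cd28* had 10 to 41.

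*Lgals9*, the gene of galectin-9, a ligand of TIM-3, was at 136.7 ± 13.8 CPM per kilobase, beside 157.7 ± 7.34 for *Havcr2*. *Sirpa*, whose product receives the inhibitory signal of CD47, was at 945.4 ± 57.3 CPM per kilobase. These are levels of RNA, and the proteins were not measured in these libraries.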
